A study of Homo sapiens with 12 samples.

Results

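Replicate cultures labelled set 1 and set 2 were compared in Hs578T and in BT-20, both of them human breast carcinoma lines. The comparison took the 8 of 12 arrays whose cells received the oligonucleotide M or U, which gave 4 arrays of set 1 and 4 of set 2, or 2 pairs of arrays per line (an M pair and a U pair). Hs578T is a mesenchymal-like line and BT-20 an epithelial one. In all groups the cells were grown in the same serum-containing medium, treated for 24 h with 200 nM of an oligonucleotide in the liposomal reagent DOTAP, and frozen before total RNA was extracted. M (labelled CDH13 M) is a short duplex DNA with methylated CpG cytosines and U (labelled CDH13 U) is the same duplex without methylation. Hs578T set 1, Hs578T set 2, BT-20 set 1 and BT-20 set 2 thus each hold 1 M array and 1 U array. The remaining 4 arrays, of ODN2006 and its GpC control in each line, have no set number and were read only as a reference. The labels call the M and U arrays biological replicates but do not say what separated the sets. The array names in the labels carry one date for all set 1 arrays and another for set 2 and the ODN arrays, so that the culture occasion and the array batch cannot be told apart. No array of untreated cells was used.

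A cell line is a population that is passaged, replated and fed by hand, and its transcriptome depends on density, time since feeding and the history of the stock. Cell contact and tension of the cytoskeleton act on the coactivator YAP, which with TEAD factors switches on genes such as CCN1, CCN2 and AMOTL2. Serum acts on immediate early genes such as FOS and EGR1. Subclones of one line can also differ in single genes that are either silent or expressed. Values below are log2 GCRMA values of 1 probe set per gene on the Affymetrix U133 Plus array. The array medians were 3.01 to 3.06, and a value under 5 was treated as near background. A change is the mean of set 2 minus the mean of set 1 on the log2 scale, with its SE from limma, and a gene was called at a Benjamini-Hochberg adjusted P under 0.05 over 10415 genes tested. Since each set is a single occasion in each line, these P-values ask only whether a difference repeated between the M and the U pair. The spread of a gene was 1 estimate from the arrays of both lines. A P-value in 1 line thus also depends on how well the pairs of the other line agreed. The RNA is from bulk cultures, in which fewer cells of a kind and less RNA per cell cannot be told apart.

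More of the variation within a line lay between the sets than between M and U. In Hs578T the sets held 57.2% of the summed squares over all genes, the treatments 28.8% and the rest 14.0%. In BT-20 the shares were 64.6%, 18.6% and 16.9%. Single arrays stood apart within sets. The SD of the log2 difference between M and U was 0.437 in set 2 of Hs578T and 0.308 in set 1, against 0.445 to 0.520 between arrays of different sets. In BT-20 it was 0.377 in set 1 and 0.265 in set 2, and the set 1 M array lay farther from set 2 (0.539 and 0.541) than the set 1 U array (0.401 for both). The set change of a gene in the M pair correlated with that in the U pair at 0.599 in Hs578T and 0.595 in BT-20 across 10415 genes, which are not independent, and at 0.0962 to 0.129 between pairs of different lines. Of the 100 genes with the largest change in the M pair of Hs578T, 96 had the same sign in the U pair, where their median change in that direction was 1.62, and 75 reached 1 or more. In BT-20 the corresponding values were 97 genes, 1.32 and 60 genes. Over all genes 66.7% had the same sign in both pairs of Hs578T and 65.9% in those of BT-20. M and U arrays of one set share the occasion, so the repeat is between cultures treated side by side.

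**Figure D1:**
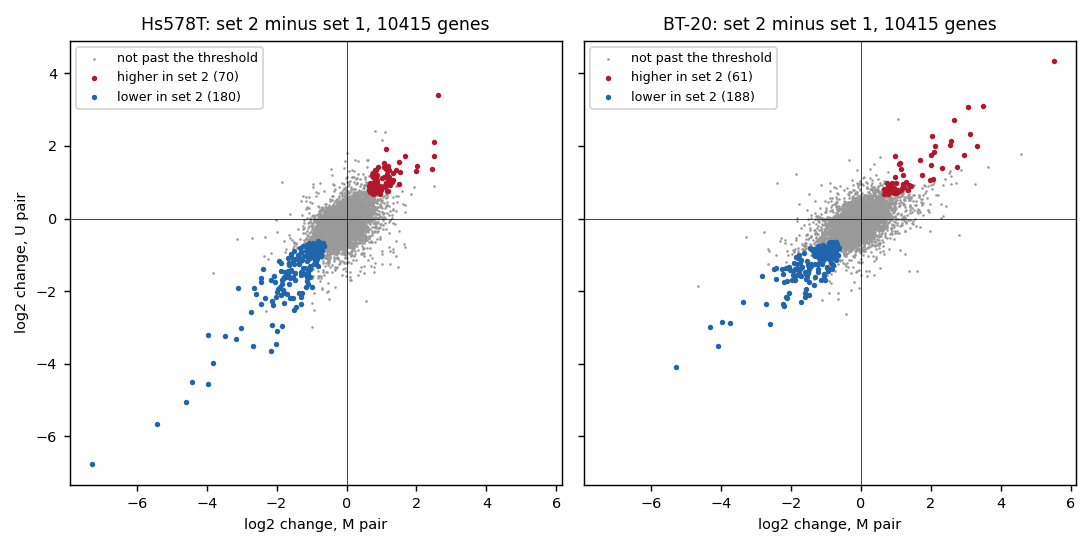
Set 2 minus set 1 (log2) in the M pair (horizontal axis) against the U pair (vertical axis) for each of 10415 genes in Hs578T (left) and BT-20 (right), with called genes in colour. The called genes lie along the diagonal, where both pairs moved alike, which the test itself selects for. The correlation over all genes was 0.599 in Hs578T and 0.595 in BT-20.

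In Hs578T 70 genes were higher in set 2 (0.672% of those tested) and 180 lower (1.73%). In BT-20 61 were higher (0.586%) and 188 lower (1.81%). In the same fit no gene was called between M and U by limma in Hs578T, in BT-20 or over both lines, with 1463, 510 and 1266 genes at an unadjusted P under 0.05, against 2144 and 2186 for the sets in Hs578T and BT-20. The median change of all genes was −0.05 in Hs578T and −0.04 in BT-20. The counts rest on few arrays. For set 2 against set 1 in Hs578T, 3 genes were called without the Hs578T M pair, 1 without its U pair, 123 without either BT-20 pair and 16 with no filter on dim genes. For set 2 against set 1 in BT-20, limma called 0 without either Hs578T pair (1962 at an unadjusted P under 0.05), 26 without the BT-20 M pair, 71 when the line was fitted alone and 8 with no filter. The split also depended on the scaling. The share of calls that were higher was 28.0% in Hs578T and 24.5% in BT-20 as deposited, 22.1% and 13.6% after centring on housekeeping genes, and 37.4% and 34.5% after quantile normalisation. The 2 arrays of one set lay entirely above or below those of the other for 69 of the 70 higher and 179 of the 180 lower genes in Hs578T, and for 61 of 61 and 186 of 188 in BT-20, against 47.0% and 55.0% of all genes. A call favours genes whose pairs agree, so this follows largely from the selection and adds no support.

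Genes that crossed the value of 5 between the sets were counted over all genes tested, called or not. Most of them fell in set 2, and most changed by less than 2 on the log2 scale. In Hs578T 91 genes were at 5 or above in both set 1 arrays and under 5 in both set 2 arrays (0.874%), and 39 did the opposite (0.374%). In BT-20 the numbers were 84 (0.807%) and 39 (0.374%). By the same reading M against U gave 34 genes in one direction and 29 in the other in Hs578T, and 17 and 17 in BT-20. When a change of at least 2 was also required for the sets, 22 genes were lost in set 2 and 1 appeared in Hs578T, while 14 were lost and 10 appeared in BT-20. With that requirement M against U gave 1 gene in Hs578T and 0 in BT-20. No gene was lost in set 2 of both lines, and only SUN5 appeared in set 2 of both, named after its values were seen.

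In Hs578T the largest differences were losses. TPD52, a vesicle trafficking protein whose gene is often amplified in breast cancer, was at 9.97 (M) and 9.99 (U) in set 1 and at 2.69 and 3.22 in set 2. The set 1 arrays were strongly positive and the set 2 arrays at background, so TPD52 was at least 31.6-fold lower in set 2 (change −7.03 ± 0.15, adjusted P=0.000277). The 3 TPD52 probe sets with signal gave changes of −5.78 to −7.03, and the others lay at background. KCNMB1, the beta subunit of the smooth muscle BK potassium channel, was at 8.10 and 8.17 in set 1 and at 2.67 and 2.51 in set 2. It was at least 8.78-fold lower in set 2 (−5.54 ± 0.12, adjusted P=0.000277), and the sets did not overlap.

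CARD16, a caspase recruitment domain protein closely related in sequence to caspase-1, fell from 8.01 and 8.06 to 3.41 and 3.01 (−4.83 ± 0.14, adjusted P=0.000543). Its probe set may also read that relative. CST1, a secreted cysteine protease inhibitor, fell from 7.00 and 7.12 to 2.58 and 2.60 (−4.47 ± 0.11, adjusted P=0.0003). COL4A5, a basement membrane collagen chain, fell from 6.99 and 6.94 to 3.18 and 2.95 (−3.90 ± 0.11, adjusted P=0.000543). In each of these genes the arrays of a set lay close together, and set 2 was at background.

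The receptor tyrosine kinase EPHB1 was at 8.21 and 7.90 in set 1 and at 4.26 and 3.34 in set 2 (−4.26 ± 0.42, adjusted P=0.0211). The kinase STK26 was at 8.22 and 7.95 and then at 4.26 and 4.74 (−3.58 ± 0.20, adjusted P=0.00551). Both were lower in set 2 without overlap. LIMCH1, an activator of non-muscle myosin, DRD1, a dopamine receptor, ELMO1, which acts with DOCK proteins on Rac, the dehydrogenase DHRS2 and OCIAD2 completed the 12 largest losses, with changes of −3.36, −3.25, −3.02, −3.09 and −2.90. Their set 1 values lay between 4.74 and 6.42 and their set 2 values between 2.01 and 4.02.

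Other calls in Hs578T included IL1B, DSP, JUP, CYP26B1 and DUSP1, of which only DSP and DUSP1 stayed above 5 in all 4 arrays. The cytokine IL1B was at 7.64 and 7.90 in set 1 and at 5.52 and 4.96 in set 2 (−2.53 ± 0.22, adjusted P=0.015). Desmoplakin (DSP), which anchors intermediate filaments at desmosomes, fell from 10.0 and 9.88 to 7.84 and 8.18 (−1.93 ± 0.16, adjusted P=0.0149). Its partner plakoglobin (JUP) fell from 6.07 and 6.14 to 4.56 and 3.61 (−2.02 ± 0.25, adjusted P=0.0301). The retinoic acid hydroxylase CYP26B1 was lower by −1.96 ± 0.11 (adjusted P=0.00551) and the MAP kinase phosphatase DUSP1 by −1.43 ± 0.16 (adjusted P=0.0282).

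The increases in Hs578T were smaller. RBP4, the carrier of retinol in plasma, was at 4.14 and 3.03 in set 1 and at 6.74 and 6.43 in set 2, at least 3.00-fold higher (3.00 ± 0.20 on the log2 scale, adjusted P=0.00897). The cancer-testis gene SSX3, whose family members are close in sequence, rose from 4.62 and 5.45 to 7.11 and 7.17 (2.11 ± 0.20, adjusted P=0.0196). In both genes the sets did not overlap. B4GALNT1, the GM2 and GD2 ganglioside synthase, rose from 4.89 and 4.86 to 6.39 and 6.42 (1.53 ± 0.15, adjusted P=0.0213).

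The small heat shock protein CRYAB rose in Hs578T from 7.01 and 6.89 to 8.54 and 8.18 (1.41 ± 0.12, adjusted P=0.015). S100A4, a calcium-binding protein linked to cell motility, rose from 11.1 and 11.0 to 12.4 and 12.3 (1.30 ± 0.12, adjusted P=0.0165). The neuronal membrane protein LRRN3 (1.64), the glycoprotein hormone STC1 (1.38), the clock repressor CIART (1.30), the metallothionein MT1E (1.24) and the Wnt inhibitor APCDD1 (1.10) were called as well. PTGES (1.91), which makes prostaglandin E, and MOB3B (1.74) were called on one probe set each. The other PTGES probe set changed by 0.02, and the other MOB3B probe sets lay at background in Hs578T.

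In BT-20 the largest difference was a gain. MUCL1, a small mucin of breast epithelium, was at 2.58 and 3.50 in set 1 and at 8.10 and 7.84 in set 2. It went from background to clear signal and was at least 7.83-fold higher in set 2 (4.93 ± 0.28, adjusted P=0.00581). FOS, a subunit of the AP-1 factor, rose from 3.88 and 4.37 to 7.36 and 7.46 (3.29 ± 0.15, adjusted P=0.00495), at least 5.32-fold. EGR1, another immediate early factor, rose from 10.9 and 11.4 to 13.2 and 12.8 (1.85 ± 0.23, adjusted P=0.0356). No other of the 18 immediate early genes tested was called in BT-20, and the list median was −0.18, below that of all genes.

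Some genes of secreted or surface proteins were among the higher genes of BT-20. CEACAM6, an adhesion glycoprotein, rose from 3.38 and 3.49 to 6.03 and 6.21 (2.69 ± 0.11, adjusted P=0.00495). TCN1, a vitamin B12-binding protein of secretions, rose from 3.61 and 4.29 to 6.92 and 6.29 (2.66 ± 0.39, adjusted P=0.0456). The membrane serine protease TMPRSS4 rose from 4.55 and 5.39 to 7.10 and 7.43 (2.29 ± 0.19, adjusted P=0.0124). The mucin MUC1 (1.00) and the antiprotease SLPI (1.16) were called higher, with all arrays of both sets above 6. These genes were named by size or as list members and form no list of their own.

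The other large increases in BT-20 had varied functions. AK4, a mitochondrial adenylate kinase, rose from 3.84 and 3.86 to 6.92 and 6.94 (3.08 ± 0.10, adjusted P=0.00495), and its 4 probe sets changed by 0.48 to 3.08. NNMT, which methylates nicotinamide, rose from 8.45 and 9.76 to 11.4 and 11.5 (2.35 ± 0.30, adjusted P=0.0368). The lipogenic factor SREBF1 rose from 5.55 and 6.25 to 7.31 and 7.46 (1.49 ± 0.16, adjusted P=0.026). The aldo-keto reductases AKR1C1 (0.82) and AKR1C3 (0.72), which share much sequence, the thioredoxin inhibitor TXNIP (1.05) and the steroid receptor cochaperone FKBP5 (0.89) were also higher. SELENOP, a selenium transport protein (2.73), the phosphatase PXYLP1 (2.35), the miR-205 host transcript MIR205HG (2.16) and the developmental factor PAX7 (2.09) were under 5 in set 1 and above 5 in set 2.

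The losses in BT-20 were led by HSD17B2, which oxidises oestradiol and testosterone. It was at 7.27 and 5.99 in set 1 and at 1.99 and 1.90 in set 2, at least 3.10-fold lower (−4.69 ± 0.28, adjusted P=0.00686). The kinase gene ALPK2 fell from 7.05 and 6.34 to 2.98 and 2.84 (−3.79 ± 0.17, adjusted P=0.00495). The zinc finger gene ZBED2 fell from 7.82 and 7.43 to 3.51 and 4.42 (−3.66 ± 0.30, adjusted P=0.0136). In all 3 the set 2 arrays were under 5 and the set 1 arrays above it.

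ID4, an inhibitor of helix-loop-helix factors, fell in BT-20 from 6.99 and 6.24 to 4.39 and 3.33 (−2.75 ± 0.12, adjusted P=0.00495). ALDH8A1 (−3.42), the AMPA receptor auxiliary protein SHISA9 (−3.31) and the melanosomal and lysosomal glycoprotein GPNMB (−2.53) dropped to between 3.08 and 4.58 in set 2. So did the copper pump ATP7B (−2.30), the cancer-testis gene MAGEC1 (−2.30) and the raft protein RFTN1 (−2.21). WLS, the carrier of Wnt proteins for secretion, changed by −2.83 on its brightest probe set and by −1.75 and −0.04 on the others, which were dim in BT-20. The set 1 M array was above the set 1 U array in HSD17B2, ALDH8A1, WLS and RFTN1 by more than 1 log2 unit. Over all 188 lower genes of BT-20 the median change was −1.13 in the M pair and −1.06 in the U pair.

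Matrix genes at high level fell in BT-20. COL4A1 and COL4A2, the paired chains of basement membrane collagen IV, fell from 8.39 and 8.01 to 6.19 and 6.26 and from 9.41 and 9.29 to 7.81 and 7.83 (−1.98 ± 0.15, adjusted P=0.0104, and −1.53 ± 0.11, adjusted P=0.01). Fibronectin (FN1) fell from 12.4 and 12.9 to 11.0 and 11.0 (−1.59 ± 0.16, adjusted P=0.0229). The matricellular THBS1 fell from 12.9 and 12.7 to 11.3 and 11.2 (−1.55 ± 0.11, adjusted P=0.0097). In all 4 genes both set 2 arrays lay more than 1 log2 unit below both set 1 arrays. FN1 is not on the extracellular matrix list. Of its 28 genes tested, 0 were called higher and 5 lower in BT-20. The 5 were COL4A1, COL4A2, THBS1, the laminin chain LAMC1 and the fibulin FBLN1. In Hs578T 0 were called higher and 1 (THBS1) lower. Of all genes 1.81% were called lower in BT-20 and 1.73% in Hs578T. The list medians were −0.05 in BT-20 and −0.10 in Hs578T. The list median was thus close to that of all genes, and the calls in BT-20 were a few members.

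Most calls were made in 1 line. The calls of a gene in both lines use 1 estimate of its spread, so a small spread favours both calls. Shares above those of all genes thus cannot be read as agreement between the lines. Of the lower genes 11 were called in both, which is 6.11% of the 180 in Hs578T and 5.85% of the 188 in BT-20, beside 1.81% and 1.73% of all genes called lower in BT-20 and in Hs578T. These were AKAP12, AMIGO2, C5orf46, F3, MFAP3L, NFE2L3, NRXN3, PDLIM5, RASSF2, THBS1 and TLN1, named after their values were seen. Talin (TLN1), which couples integrins to actin, was at 9.35 and 9.41 and then 8.29 and 8.44 in Hs578T, and at 7.64 and 7.89 and then 6.83 and 6.96 in BT-20, with changes of −1.02 and −0.87. The changes were −1.55 and −1.69 for NRXN3, −1.52 and −1.44 for the transcription factor NFE2L3, −0.999 and −0.905 for the adhesion protein AMIGO2, −1.01 and −0.81 for the kinase scaffold AKAP12 and −0.82 and −0.84 for PDLIM5, a scaffold on the actin cytoskeleton. RASSF2 was under 5 in all Hs578T arrays. Only 3 genes were called higher in both lines (4.29% of 70 and 4.92% of 61, beside 0.586% and 0.672% of all genes), the matrix protein EGFLAM (0.98 and 0.90), the histone H2AC25 (0.91 and 0.83) and STC1 (1.38 and 1.08).

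The mean of the changes in both lines was tested as well. A large change in 1 line alone can carry it, as for CARD16 (−4.83 in Hs578T and −0.01 in BT-20). In this mean 93 genes were higher (0.893%) and 369 lower (3.54%), with 2858 at an unadjusted P under 0.05. The share of higher calls was 20.1%, and 9.30% and 34.9% with housekeeping centring and quantile normalisation. The difference of the set change between the lines was called for 60 genes with a higher signed change in Hs578T than in BT-20 (0.576%) and 66 with a lower one (0.634%), with 1818 at an unadjusted P under 0.05. Opposite calls in the lines were made for 7 genes, 2.80% of the 250 and 2.81% of the 249, again named after their values were seen. Of all 10415 genes 249 were called in BT-20 and 250 in Hs578T, in either direction. The shared spread favours calls in both lines here too. CRYAB rose in Hs578T and fell in BT-20 from 6.57 and 6.39 to 4.85 and 4.81 (difference 3.05 ± 0.17, adjusted P=0.00694). PKIB, an inhibitor of protein kinase A, fell in Hs578T from 4.77 and 4.23 to 2.19 and 2.14, under 5 throughout, and rose in BT-20 from 8.13 and 8.47 to 10.1 and 9.94. The bile acid and drug exporter ABCC3 changed by −1.06 in Hs578T and 1.00 in BT-20. KRT14, MBOAT1, MIR31HG and ZNF582 were the other 4, each under 5 in at least 3 arrays of one line.

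Among the 36 lists of genes by function, the YAP and TEAD targets moved one way in both lines. Of 22 tested, 4 were called lower in Hs578T and 5 in BT-20, and 0 higher in either, while 20 and 19 lay below 0, against 6035 and 6030 of all 10415 genes. Calls in this and the following lists stand beside those of all genes. These were 0.672% higher and 1.73% lower in Hs578T, 0.586% and 1.81% in BT-20, and 0.893% and 3.54% over both lines. The list median was −0.33 in Hs578T and −0.64 in BT-20, and −0.40, −0.34, −0.74 and −0.52 in the Hs578T M, Hs578T U, BT-20 M and BT-20 U pairs. Over both lines 7 of the 22 targets were called lower, beside 3.54% of all genes. No scaling turned these medians, which ran from −0.30 to −0.43 in Hs578T and from −0.57 to −0.77 in BT-20.

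CCN1, a matricellular protein and a standard readout of YAP, was at 13.4 and 13.7 in set 1 and at 12.4 and 13.2 in set 2 of Hs578T (−0.70 ± 0.16, adjusted P=0.109). In BT-20 it was at 12.4 and 11.8 and then at 10.7 and 10.5 (−1.56 ± 0.16, adjusted P=0.0249). The sets did not overlap in either line, and only the BT-20 change was called. CCN2, its relative, was at 14.2 and 14.4 and then at 13.1 and 13.7 in Hs578T (−0.87 ± 0.13, adjusted P=0.0455), and lay at background in all BT-20 arrays. Tissue factor (F3), which starts coagulation, was lower in Hs578T by −1.10 ± 0.16 (adjusted P=0.0445) and in BT-20 by −1.13 ± 0.16 (adjusted P=0.0453).

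AJUBA and AMOTL2, both regulators of the Hippo pathway upstream of YAP, fell in BT-20 from 11.7 and 11.3 to 10.2 and 9.98 and from 11.99 and 11.95 to 11.18 and 11.15 (−1.39 ± 0.12, adjusted P=0.0163, and −0.80 ± 0.11, adjusted P=0.0413). The phosphatase PTPN14, which binds YAP, fell in BT-20 from 10.9 and 10.7 to 9.82 and 9.85 (−0.97 ± 0.15, adjusted P=0.0471). In Hs578T the same 3 genes changed by −0.24, −0.23 and −0.22 and were not called. The other Hs578T calls were ARHGEF17 (−0.81) and WWC1 (−1.90), which was under 5 in both sets. AXL, a receptor kinase, changed by 0.20 and −1.46 and was not called. Of these targets CCN2, F3, PTPN14, ARHGEF17, AXL and TGFB2 were named after their values were seen.

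**Figure D2:**
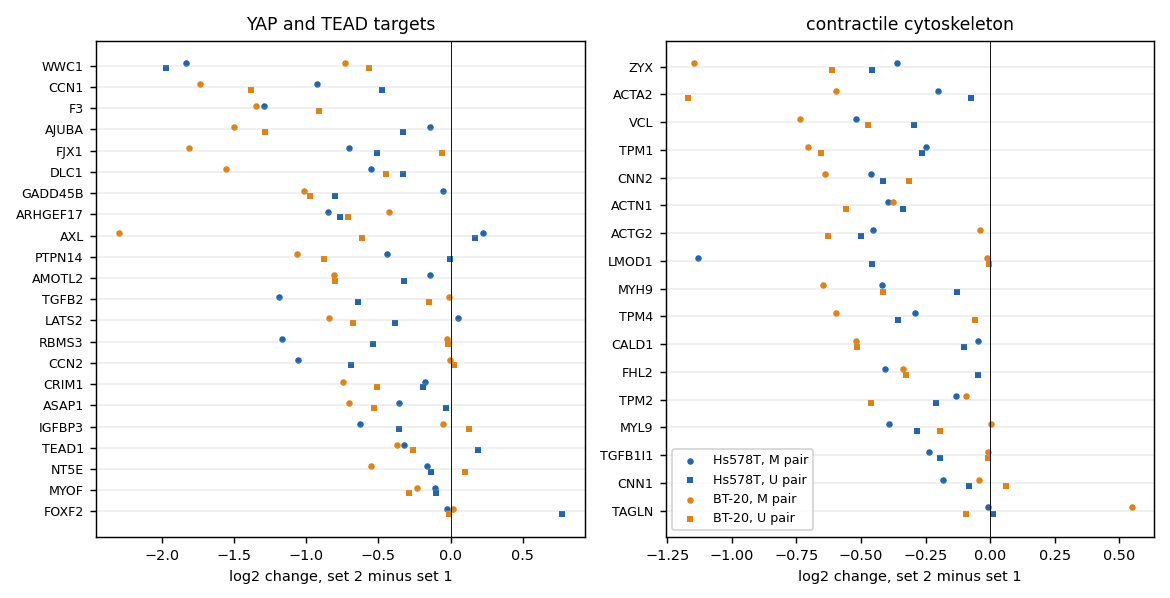
Set 2 minus set 1 (log2, horizontal axis) of each tested YAP and TEAD target (left) and contractile cytoskeleton gene (right) in the 4 pairs, with circles for M pairs and squares for U pairs, blue for Hs578T and orange for BT-20. Of 22 targets 20 in Hs578T and 19 in BT-20 had a mean change below 0, and of 17 contractile genes 16 and 15. Of all 10415 genes 6035 and 6030 had one.

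The TEAD motif GGAATG was sought on both strands in RefSeq promoters of GRCh38.p14 (250 bases before to 50 after the start, 300 bases in all). It was present in 5 of the 16 YAP and TEAD targets that had a promoter sequence (31.2%) and in 14.0% of 27305 promoters. The following stretches of 30 bases show it, in capitals, in the promoters of the 3 list members with the smallest P among those that hold it before the start, since their levels are given above or in the plot of the list. They lie at chr1:214551785-214551814 on the minus strand (PTPN14), chr6:131951450-131951479 on the minus strand (CCN2, with 2 copies) and chr1:218345139-218345168 on the plus strand (TGFB2). CATTCC is the motif read on the other strand, and a match is a description of the sequence only.
PTPN14: cctcccgggccgCATTCCtccccgcccccg
CCN2: ggaGGAATGcgaGGAATGtccctgtttgtg
TGFB2: tgtcagggcgcaCATTCCacctccttcctc
The copy nearest the start in CCN2 begins 95 bases before it, against 200 for PTPN14 and 185 for TGFB2. TGFB2, a growth factor, was at 10.5 and 10.8 and then at 9.34 and 10.2 in Hs578T (−0.92 ± 0.16, adjusted P=0.0646) and near background in BT-20.

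The contractile cytoskeleton genes, which depend in part on the actin-regulated factor SRF, shifted the same way by less. Of 17 tested, 16 lay below 0 in Hs578T (median −0.27, 0 called) and 15 in BT-20 (median −0.33). The counts in this paragraph stand beside 6035 of all 10415 genes below 0 in Hs578T and 6030 in BT-20. Tropomyosin TPM1 alone was called in BT-20, where it fell from 13.75 and 13.54 to 13.04 and 12.89 (−0.68 ± 0.10, adjusted P=0.0481). Over both lines TPM1 (−0.47) and the focal adhesion protein ZYX (−0.64) were called. The MAPK feedback genes had medians of −0.31 and −0.26, with 14 and 13 of 16 below 0. The ephrin receptor EPHA4 was called in BT-20, where it fell from 6.65 and 6.28 to 5.06 and 4.23 (−1.81 ± 0.18, adjusted P=0.0229), and cyclin D1 (CCND1, −0.50) over both lines.

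Growth genes gave few calls and had medians mostly above 0. Their counts stand beside 4380 of all 10415 genes above 0 in Hs578T and 4385 in BT-20. Of 39 DNA replication genes, 29 in Hs578T and 30 in BT-20 lay above 0, with medians of 0.16 and 0.19. The replicative helicase component CDC45 was called over both lines (0.45 ± 0.08, adjusted P=0.0459) and no member in either line alone. Of 34 mitosis genes 30 lay above 0 in Hs578T (median 0.22) and 12 in BT-20 (median −0.09), with 0 called. Of 9 histone genes 8 and 7 lay above 0 (0.56 and 0.29), and H2BC5 (0.67) and H1-2 (0.60) were called over both lines.

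Stress lists showed few calls. Their counts stand beside 6035 of all 10415 genes below 0 in Hs578T and 6030 in BT-20. In the ATF4 arm of the integrated stress response, 25 of 33 genes in Hs578T and 28 in BT-20 lay below 0 (medians −0.18 and −0.27), and only JDP2 was called, in BT-20 (−0.82 ± 0.10, adjusted P=0.0368). CHAC1, a glutathione-degrading member of this arm, changed by −0.08 in the M and −0.97 in the U pair of Hs578T (mean −0.52) and by −1.20 and −0.67 in those of BT-20 (mean −0.93), and was not called over both lines (−0.73 ± 0.18, adjusted P=0.0783). The endoplasmic reticulum chaperones gave 1 call, HYOU1 over both lines (−0.47). Metallothioneins bind zinc and copper and share much sequence. All 7 tested genes of their list, which includes the zinc exporter SLC30A1, lay above 0 in both lines (medians 0.38 and 0.23). MT1E was called in Hs578T. After centring on housekeeping genes, 2 of the 7 lay below 0 in BT-20.

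Inflammatory and interferon genes gave few calls. Since 6035 of all 10415 genes lay below 0 in Hs578T and 6030 in BT-20, counts near that share say little about a list. Of 20 NF-kB targets and cytokines, 14 lay below 0 in Hs578T (median −0.25, with −0.02 in the M and −0.45 in the U pair) and 11 in BT-20 (−0.01). IL1B was the only call in Hs578T and there was none in BT-20, while IL1B, CXCL8 and LIF were called lower over both lines (−1.21, −0.81 and −0.58), IL1B with a change of 0.12 in BT-20. Of 30 interferon-stimulated genes 20 lay below 0 in Hs578T (median −0.20) and 12 in BT-20 (0.16), and IFIT2 was called higher in Hs578T (0.95) and IFIH1 lower over both lines (−0.58). Of 18 heat shock genes 12 lay below 0 in Hs578T (median −0.07) and 16 in BT-20 (−0.23, and 18 of 18 in the M pair). The list held opposite calls, CRYAB higher in Hs578T and CRYAB and HSPB8 (−0.87) lower in BT-20. The NRF2 targets likewise went both ways in BT-20, with 4 higher, among them AKR1C1 and AKR1C3, and HMOX1 lower (−0.98). The circadian clock list had a median of 0.91 in BT-20 that came from the M pair (1.39), against 0.07 in the U pair.

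The lists of basic cell functions had no calls in either line or over both. These were 30 ribosomal proteins (medians 0.01 and 0.04), 34 genes of oxidative phosphorylation (0.01 and 0.11) and 20 housekeeping genes (0.05 and 0.08).

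**Figure D3:**
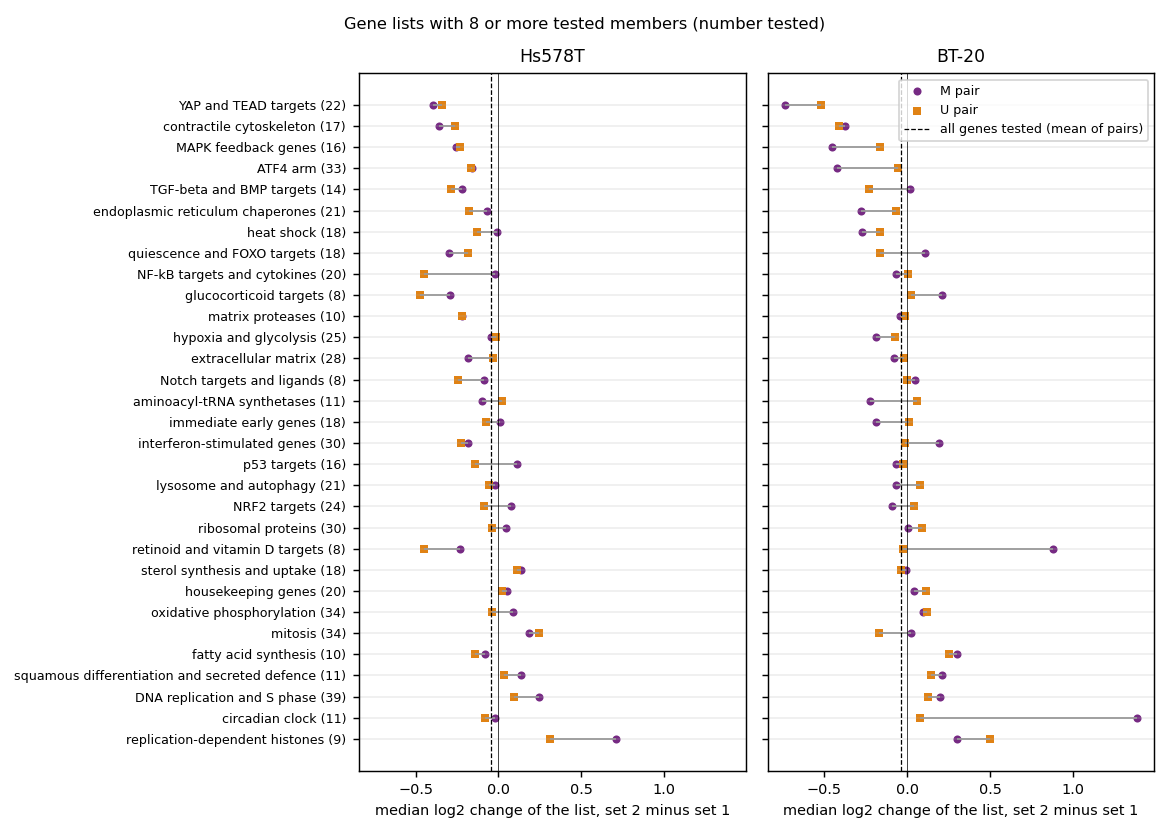
Median set 2 minus set 1 (log2, horizontal axis) of each function list with at least 8 genes tested, in Hs578T (left) and BT-20 (right), with circles for the M pair, squares for the U pair and a dashed line for the median of all genes tested. The YAP and TEAD targets and the contractile genes lie to the left in all 4 pairs, the histones to the right, and the circadian clock list is far to the right in 1 pair only.

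Markers of other cells were read in the same arrays. Of 28 epithelial markers on the array, 22 were lower in Hs578T than in BT-20 by at least 4, and 19 of these were under 5 in all 4 Hs578T arrays. E-cadherin (CDH1) lay between 2.66 and 2.71 in Hs578T and keratin KRT5 between 2.05 and 2.38. Of the 28, however, 7 were at 5 or above in all 4 Hs578T arrays, the highest KRT18 (up to 12.97), and among the markers far lower than in BT-20 the keratins KRT7 (6.68 to 7.29) and KRT8 (6.56 to 6.92) and the plakophilin PKP3 (5.47 to 5.65) were also detected in both sets. The log2 of the summed level of the 28 was 13.27 to 13.37 in set 1 and 12.983 to 13.003 in set 2. The epithelial genes DSP, JUP and ST14 were called lower in Hs578T, ST14 under 5 in both sets. The list as a whole did not shift there, since the 27 tested members had a median change of −0.01, with 11 above 0. Of 29 mesenchymal markers, 19 were lower in BT-20 by at least 4, and 16 of them were under 5 in all BT-20 arrays. Their log2 summed level in BT-20 was 14.3 in set 1 and 13.5 in set 2, and FN1, FSTL1 (−1.17) and the transcription factor SNAI2, which fell from 11.5 and 10.7 to 9.67 and 9.61 (−1.45 ± 0.22, adjusted P=0.0457), were called lower. The 28 tested mesenchymal markers had a median change of −0.02 in BT-20, with 12 above 0, so this list did not shift as a whole either. The 9 leukocyte markers were under 5 in every array. Of the endothelial markers CDH5 alone was high, in BT-20, at 7.29 and 8.48 and then at 9.22 and 9.37, and was not called (adjusted P=0.0634). Of the markers of its own kind, BT-20 held 27 of 28 epithelial and Hs578T 28 of 29 mesenchymal ones at 5 or above in all 4 arrays. The part of other cells in the calls was not tested.

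Many called genes were near background in the other line. Of the 180 lower genes of Hs578T 59 were under 5 in BT-20 (32.8%), and of the 188 lower genes of BT-20 66 were under 5 in Hs578T (35.1%). Among the higher genes 33 of 70 (47.1%) and 27 of 61 (44.3%) were. Over all genes tested the shares were 10.3% and 9.35%. The spread was 1 estimate from both lines, and a gene at background can vary little, as CARD16 did in BT-20 (2.88 to 2.91). This favours a call, so the higher shares cannot be read as a trait of the genes that differ. CpG dinucleotides were counted in the promoters of the called genes. Under 10 in 300 bases were found in 30.4% of the higher and 24.4% of the lower genes of Hs578T, in 34.0% and 18.7% of those of BT-20, and in 9.67% of the 8612 tested genes with a promoter sequence. These are descriptions with no test.

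The ODN arrays, which played no part in the comparison and carry the array date of set 2, mostly lay with set 2 in BT-20. Of the 188 lower genes 181 (ODN2006) and 173 (control) were nearer set 2, and of the 61 higher genes 55 and 55, against 70.5% and 68.6% of all genes. MUCL1 was at 8.84 and 8.88, FOS at 8.46 and 7.83 and HSD17B2 at 1.91 and 1.99 in these arrays. In Hs578T the counts were 129 and 126 of 180 and 44 and 51 of 70, against 54.3% and 53.3% of all genes. TPD52 (3.19 and 3.10) and KCNMB1 (2.15 and 2.12) were silent there too. Other Hs578T genes lay with set 1 or beyond it. IL1B was at 9.55 and 7.95, DUSP1 at 11.0 and 10.2, B4GALNT1 at 4.10 and 4.00 and SSX3 at 4.97 and 5.17. The YAP and TEAD targets had a median of 0.19 and 0.01 relative to set 1 in the Hs578T ODN arrays, against −0.64 and −0.60 in those of BT-20. The oligonucleotides differ as well, so the part of the set cannot be told apart from theirs.

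The small changes in Hs578T were uneven over the chromosomes. On chromosome 22, 173 of 242 tested genes (71.5%) lay above 0, with a median of 0.17 (0.18 in the M and 0.15 in the U pair), 3 calls higher and 0 lower. On chromosome 16 only 26.6% of 478 lay above 0, with a median of −0.16 (−0.12 and −0.19), 1 call higher and 10 lower. Of all 10415 genes 4380 lay above 0 in Hs578T, 0.672% were called higher and 1.73% lower. Calls this few say little about a chromosome. The SD of the 23 chromosome medians was 0.0749 in Hs578T for the sets and 0.0217 for M against U. In BT-20 it was 0.027 and 0.0108, and no chromosome median lay beyond −0.0891 or 0.0056. In the Hs578T ODN arrays the median of chromosome 22 relative to set 1 was 0.01 (ODN2006) and 0.16 (control), and that of all genes −0.15 and −0.08.

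Control probe sets were read in the same arrays. The hybridisation controls had medians of 9.68 to 9.74 in set 1 and 9.73 to 9.77 in set 2 of Hs578T, and of 9.64 to 9.69 and 9.90 in BT-20, where set 2 was thus higher without overlap. The 3′ minus 5′ difference of ACTB, which grows as RNA degrades, was 0.809 to 0.936 in set 1 and 0.686 to 0.787 in set 2 of Hs578T, without overlap, and 0.872 to 0.919 and 0.765 to 0.920 in BT-20, with overlap. The part of these differences in the calls was not tested. The median of the housekeeping genes was 11.4 in BT-20 set 1 and 11.5 to 11.6 in set 2. Centring on it moved the median of all BT-20 genes from −0.04 to −0.17, so directions of small changes in BT-20 hold relative to the array as deposited.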

How the data were processed

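RNA of 12 cultures was hybridised to Affymetrix arrays. The deposited values are log2 expression values of 54675 probe sets, which the authors computed with GCRMA in R 2.4 per the submitters' processing notes. Whether all arrays were normalised together is not given in the sources used here. No column was unmatched to a sample (0). Of the probe sets, 41097 name 1 gene, 1801 several and 11777 none in the probe table used, and the brightest probe set stood for each of 19775 genes. Results for genes unnamed there are not reported here.

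Array medians were 3.01 to 3.06 and 34.0% to 34.8% of the probe sets reached 5 over the 8 arrays, and the number of arrays limits the precision. Genes at 5 or above in at least 2 of the 8 arrays (10415) were fitted with limma 3.58.1 in R 4.3.3. The model held the mean of each line and treatment, which pairs the sets by treatment, and a set effect per line (2 residual degrees of freedom, prior 3.21). Benjamini-Hochberg adjustment and a threshold of 0.05 were used. Bounds for genes under 5 took such values as 5. In simulated data 94% of genes changed by log2 1 were recovered in Hs578T and 95% in BT-20, with 15 and 9 unchanged genes called. For the difference of the set change between lines it was 55%, with 15 unchanged genes called. The noise was normal, independent between arrays and had the moderated spread of the fit. These shares thus hold under the model and may overstate recovery in the real arrays.

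The pairing by treatment comes from the titles. Named genes were the 12 with the largest called change per direction and line with one sign in both pairs, up to 6 over or between lines, up to 4 per list by P, and CHAC1. LAMC1, CXCL8, CDH1 and KRT5 and the genes marked so in the text were named after their values were seen. The comparison, the 36 function lists and 4 marker lists were chosen with earlier results of these data known. Alternatives were another treatment term or none, each line alone, other filters, a floor, other eBayes settings, other scalings, the median of all probe sets and leaving out each pair. The ODN arrays, 4 in all, entered no test.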

Additional observations from a re-analysis of the deposited data

Results flagged for a closer look

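The set change differed between the lines for 126 genes by the interaction term of limma (Hs578T minus BT-20, adjusted P under 0.05), and 46 of these are named here or in the plots with the difference on the log2 scale.

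The difference was below 0, with a lower set 2 in Hs578T or a higher one in BT-20, for TPD52 (−6.83), KCNMB1 (−5.53), MUCL1 (−4.91), CARD16 (−4.81), CST1 (−4.45), PKIB (−4.08), COL4A5 (−3.95) and STK26 (−3.34). It was nearer 0 for LIMCH1 (−3.24), DRD1 (−3.21), FOS (−3.16), ELMO1 (−3.03), PXYLP1 (−2.97), DHRS2 (−2.82), SELENOP (−2.71) and IL1B (−2.66), and for CEACAM6 (−2.65), TMPRSS4 (−2.54), AK4 (−2.48), ZNF22 (−2.23), MIR205HG (−2.15), DSP (−2.13), ABCC3 (−2.06), CYP26B1 (−1.82), FKBP5 (−1.28) and WWC1 (−1.25).

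The difference was above 0 for HSD17B2 (4.69), ALPK2 (3.75), ZBED2 (3.66), SHISA9 (3.56), XG (3.46), ALDH8A1 (3.31), CRYAB (3.05) and RBP4 (3.00). It was nearer 0 for MOB3B (2.89), ID4 (2.76), GPNMB (2.57), MAGEC1 (2.49), ZNF582-DT (2.26) and SSX3 (2.11), and for ATP7B (2.08), EPHA4 (1.93), S100A4 (1.62), STEAP1B (1.53), EMC3-AS1 (1.49) and COL4A2 (1.19). WWC1 and XG were under or near 5 in both sets of Hs578T, and MOB3B changed on one probe set there. Of the larger differences TPD52, KCNMB1, CARD16 and CST1 came from losses in Hs578T, and MUCL1 and HSD17B2 from BT-20 alone.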

How the results depend on the processing

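For set 2 against set 1 in Hs578T 250 genes were called, against 16 with no filter on dim genes, 441 with trend and robust settings, and 1 to 123 when a pair was left out. For set 2 against set 1 in BT-20 249 were called, against 71 with the line alone, 8 with no filter, 636 with trend and robust settings, 670 with housekeeping centring (91 higher and 579 lower), and 0 to 246 without a pair. For set 2 against set 1 over both lines 462 were called, against 18, 1087 and 1107 with no filter, trend and robust settings, and housekeeping centring (103 higher and 1004 lower), 119 higher and 222 lower after quantile normalisation, and 0 to 332 without a pair. For the difference of the set change between lines 126 were called, against 9 with no filter, 62 with 5 or above in all 4 arrays of a line, 27 with values under 5 raised to 5, 235 with housekeeping centring, and 0 to 130 without a pair. The counts of 0 arose without a pair of Hs578T, and the cause was not tested. With no filter the Hs578T calls still held TPD52, KCNMB1, CARD16, CST1, COL4A5, LIMCH1, DRD1 and ELMO1, and those of BT-20 AK4, CEACAM6, ZNF22 and ZNF582-DT.

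Without the pairing by treatment as a replicate block, 286 genes were called in Hs578T (set 2 against set 1 in Hs578T, 189 of them among the 250), 266 in BT-20 (set 2 against set 1 in BT-20, 170 of the 249), 552 for set 2 against set 1 over both lines and 139 for the difference of the set change between lines.

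Of the values of named genes, 2 changed sign, neither a call. JAG1, set 2 against set 1 in BT-20, became −0.0071 with the median of all probe sets, and OIP5-AS1, set 2 against set 1 in Hs578T, became 0.0567 without the M pair and −0.5274 without the U pair. In 512 of the alternatives for single genes a call was lost, and in 99 one was gained. The causes were not tested. Genes under 5 have no reliable size on these arrays.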

Other observations

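Some members of lists that had no common direction moved apart in BT-20. The protease inhibitor TIMP1 rose from 9.88 and 9.95 to 10.6 and 10.7 (0.78 ± 0.11, adjusted P=0.0413) while TIMP2 fell from 11.1 and 10.8 to 9.71 and 9.98 (−1.12 ± 0.17, adjusted P=0.0457). The insulin receptor substrate IRS2 fell from 9.08 and 7.90 to 7.25 and 6.65 (−1.54 ± 0.17, adjusted P=0.0279) while TXNIP rose, both from the list of quiescence and FOXO targets. The keratin KRT16 fell from 9.02 and 8.18 to 7.26 and 7.18 (−1.38 ± 0.21, adjusted P=0.0482). The TGF-beta inhibitor SMAD7 (−0.85) and the Notch ligand JAG2 (−1.04) were lower in BT-20, and SMAD7 was the only call of the 14 TGF-beta and BMP targets there.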
